A study of Mus musculus with 9 samples.

Results

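Coinhibitory checkpoint receptors of T-cells were measured through the probes for Pdcd1 (PD-1), Lag3, Tigit, Havcr2 (TIM-3), Ctla4, Cd160 and Btla, chosen by gene name, and all 7 were matched among the 785 probes of the nCounter Mouse Immune Exhaustion panel. The panel reads RNA molecules directly, by color-coded barcodes bound to them and without amplification, and a value is the barcode count of a probe in a mouse. The RNA came from bone marrow T-cells, taken at day 7 with a pan-T-cell kit from 9 female wild-type C57BL/6 mice, 6 to 8 weeks old at the time of leukemia transfer. The groups were 3 mice without leukemia and without treatment, 3 vehicle treated mice with leukemia, and 3 mice with leukemia given recombinant murine IL-12 (rIL-12). Mice with leukemia, none of which were irradiated, had received 200000 cells of a single BCR-ABL1+ Arf-/- B-ALL line, and rIL-12 was given intraperitoneally at 1 µg per dose from day 3 for a planned 5 days. The paper calls BSA the vehicle, whereas the sample labels give the same mice with leukemia as untreated.

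Coinhibitory receptors lower the response of a T-cell when they meet their ligands on other cells. PD-1, CTLA-4, TIGIT, LAG-3 and TIM-3 are induced by T-cell activation and are kept high by T-cells under long antigen exposure, and CTLA-4 and TIGIT are also abundant on regulatory T-cells. BTLA is present on resting lymphocytes, B-cells included, and CD160 is found on NK cells and cytotoxic T-cells, and both bind the TNF receptor family member HVEM. Cd3d, Cd3e and Cd3g encode chains of the T-cell receptor complex that every T-cell carries, so they served as the reference for the amount of T-cell RNA.

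The labelled cell type was checked against marker genes. All 3 CD3 genes were above the viral probe in each of the 9 mice, but the summed normalized count of 11 T-cell markers was 6307 to 10688 without leukemia, 3790 to 5654 with vehicle and 2014 to 3801 with rIL-12. The sum of 7 myeloid markers was 4886 to 5435, 5298 to 6645 and 5320 to 7774 in the same groups. Ccr2 alone gave 2453 to 2922, 2558 to 3526 and 2650 to 4294 of it. The sum of 3 mast cell or basophil markers was 944 to 1078, 1769 to 2080 and 1827 to 2089. The part of such cells in the receptor results was not tested, and in bulk RNA fewer cells of a type and less RNA per cell cannot be told apart. Total counts were 257613 to 711748 per mouse, the lowest in mouse 3 of the vehicle group.

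Background was judged by a probe for a viral gene that mice do not have, which gave 53 to 114 counts (mean 91). Tigit and Btla were above it in all 9 mice. Pdcd1 and Lag3 were above it in none of the 3 mice without leukemia and in all 3 vehicle treated mice, and with rIL-12 in 1 and 2 of 3 mice. Ctla4 was above it in 0, 1 and 2 mice of these groups, and Cd160 in 2, 3 and 2. Havcr2 stayed below it in each of the 9 mice, with raw counts of 22 to 87. A fold change of Pdcd1, Lag3, Ctla4 or Havcr2 is therefore measured from values in which background can be a part. The viral probe is a single probe, however, and 252 of the 785 probes had a mean at or below its mean. The 5th percentile of the counts of a mouse was 23 to 28, so a count below the viral probe need not be background alone.

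The upstream sequences of 3 receptor genes whose counts ranked the mice of each leukemia group in the same order, Pdcd1, Tigit and Ctla4, are shown beside that of Btla, whose counts hardly differed between groups. They are the 250 bases before the annotated start in RefSeq (GRCm38.p6), where 6 of the 7 receptors had an entry, and they lie at chr1:94052554-94052803 (minus strand), chr16:43664185-43664434 (minus), chr1:60908775-60909024 (plus) and chr16:45224087-45224336 (plus), in that order. Capitals mark matches, on either strand, to the NFAT core GGAAA, the AP-1 motif TGANTCA, the interferon-activated (GAS) motif TTCNNNGAA and the RUNX motif TGTGGT.
Pdcd1: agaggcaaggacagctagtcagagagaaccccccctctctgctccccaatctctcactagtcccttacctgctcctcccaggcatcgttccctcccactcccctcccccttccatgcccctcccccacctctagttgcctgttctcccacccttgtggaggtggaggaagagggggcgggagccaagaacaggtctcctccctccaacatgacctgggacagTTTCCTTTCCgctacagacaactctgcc
Tigit: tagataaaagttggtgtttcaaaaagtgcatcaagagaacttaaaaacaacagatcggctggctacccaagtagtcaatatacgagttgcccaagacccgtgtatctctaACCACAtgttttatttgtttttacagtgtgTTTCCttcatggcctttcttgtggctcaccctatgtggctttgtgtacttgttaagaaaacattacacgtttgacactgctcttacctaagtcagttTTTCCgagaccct
Ctla4: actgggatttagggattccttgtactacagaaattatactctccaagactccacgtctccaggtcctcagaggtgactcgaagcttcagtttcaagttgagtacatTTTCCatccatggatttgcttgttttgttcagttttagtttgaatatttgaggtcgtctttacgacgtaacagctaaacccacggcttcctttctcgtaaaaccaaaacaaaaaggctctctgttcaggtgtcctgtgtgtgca
Btla: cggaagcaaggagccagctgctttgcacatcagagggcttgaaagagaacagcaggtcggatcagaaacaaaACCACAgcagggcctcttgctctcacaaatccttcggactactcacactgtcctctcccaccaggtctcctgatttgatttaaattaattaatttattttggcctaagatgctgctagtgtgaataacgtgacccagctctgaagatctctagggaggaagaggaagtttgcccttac

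The NFAT core occurred at −28 and −23 from the start of Pdcd1, at −110 and −13 in Tigit and at −144 in Ctla4, and not in this window of Btla. Of all 32851 promoter windows of this length 55.6% held it. A RUNX match was found at −140 in Tigit and at −178 in Btla, against 14.0% of all windows, and no AP-1 or GAS match was found in these 4 windows, against 6.75% and 7.02%. The marked letters were not overlapping between motifs. The 4 windows were chosen by the receptor counts, so their matches cannot relate a motif to a change. In the windows not shown, Havcr2 had no NFAT core, an AP-1 match at −200 and a RUNX match at −46. Cd160 had no NFAT core and a RUNX match at −76 for start 1. For start 2 of Cd160 there were an NFAT core at −145, a GAS match at −234 and a RUNX match at −101. Such matches describe the sequence and no binding was measured.

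In vehicle treated mice with leukemia, Pdcd1, Lag3 and Tigit rose compared with mice without leukemia, by 2.99-fold, 4.19-fold and 2.97-fold. Ctla4 and Havcr2 were higher in each mouse without passing the test, and Cd160 and Btla were near their level without leukemia. TMM normalized counts (edgeR) of Pdcd1, the receptor for PD-L1 and PD-L2, were 54.3, 66.6 and 59.9 without leukemia and 99.2, 232 and 217 with vehicle. The groups did not overlap, and mouse 1 of the vehicle group was well below the other two. Lag3, a receptor for MHC class II, had 51.1, 71.6 and 36.1 without leukemia and 132, 321 and 220 with vehicle. Tigit, which competes with CD226 for CD155, had 102, 180 and 115 without leukemia and 227, 542 and 416 with vehicle. Mouse 2 of the vehicle group had the highest value of the 9 mice for Pdcd1, Lag3, Tigit and Ctla4.

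The log2 fold changes were 1.58 for Pdcd1 (standard error 0.34), 2.07 for Lag3 (0.40) and 1.57 for Tigit (0.36), against a median of 0.049 over all 785 probes. A gene was taken as differentially expressed if it changed at least 1.5-fold with an adjusted p under 0.05 (edgeR quasi-likelihood test, Benjamini-Hochberg over the 785 probes). The adjusted p of edgeR was 0.0283, 0.0187 and 0.0331. Thus 3 of the 7 receptors passed upward, whereas 1.27% of all probes did, and Lag3, Pdcd1 and Tigit ranked 2, 4 and 5 from the top among the 785 fold changes. When no-leukemia mouse 1 or 3, or vehicle mouse 2 or 3, was left out, 0 receptors passed, and when no-leukemia mouse 2 was, Lag3 and Tigit did, although the log2 fold changes stayed within 1.37 to 1.88 for Pdcd1, 1.72 to 2.34 for Lag3 and 1.28 to 1.85 for Tigit over all 9 omissions. With housekeeping scaling, background subtraction or the methods' t-test also 0 passed.

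Ctla4, which binds CD80 and CD86 in place of CD28, had 43.8, 69.6 and 69.4 normalized counts without leukemia and 73.4, 140 and 107 with vehicle. Havcr2, a receptor for galectin-9 and other ligands, had 23.0, 25.9 and 33.3 without leukemia and 44.6, 53.6 and 41.1 with vehicle. The log2 fold changes were 0.80 (standard error 0.31, adjusted p = 0.223 by edgeR) and 0.75 (0.28, adjusted p = 0.190), so neither passed. Every vehicle treated mouse was above every mouse without leukemia for 5 of the 7 receptors, as for 12.7% of all probes. Cd160 had 135, 91.5 and 112 without leukemia and 135, 103 and 120 with vehicle, and Btla 286, 235 and 208 and then 272, 284 and 197. Their groups overlapped, with log2 fold changes of 0.079 (95% interval −0.35 to 0.50) and 0.055 (−0.35 to 0.46).

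**Figure D1:**
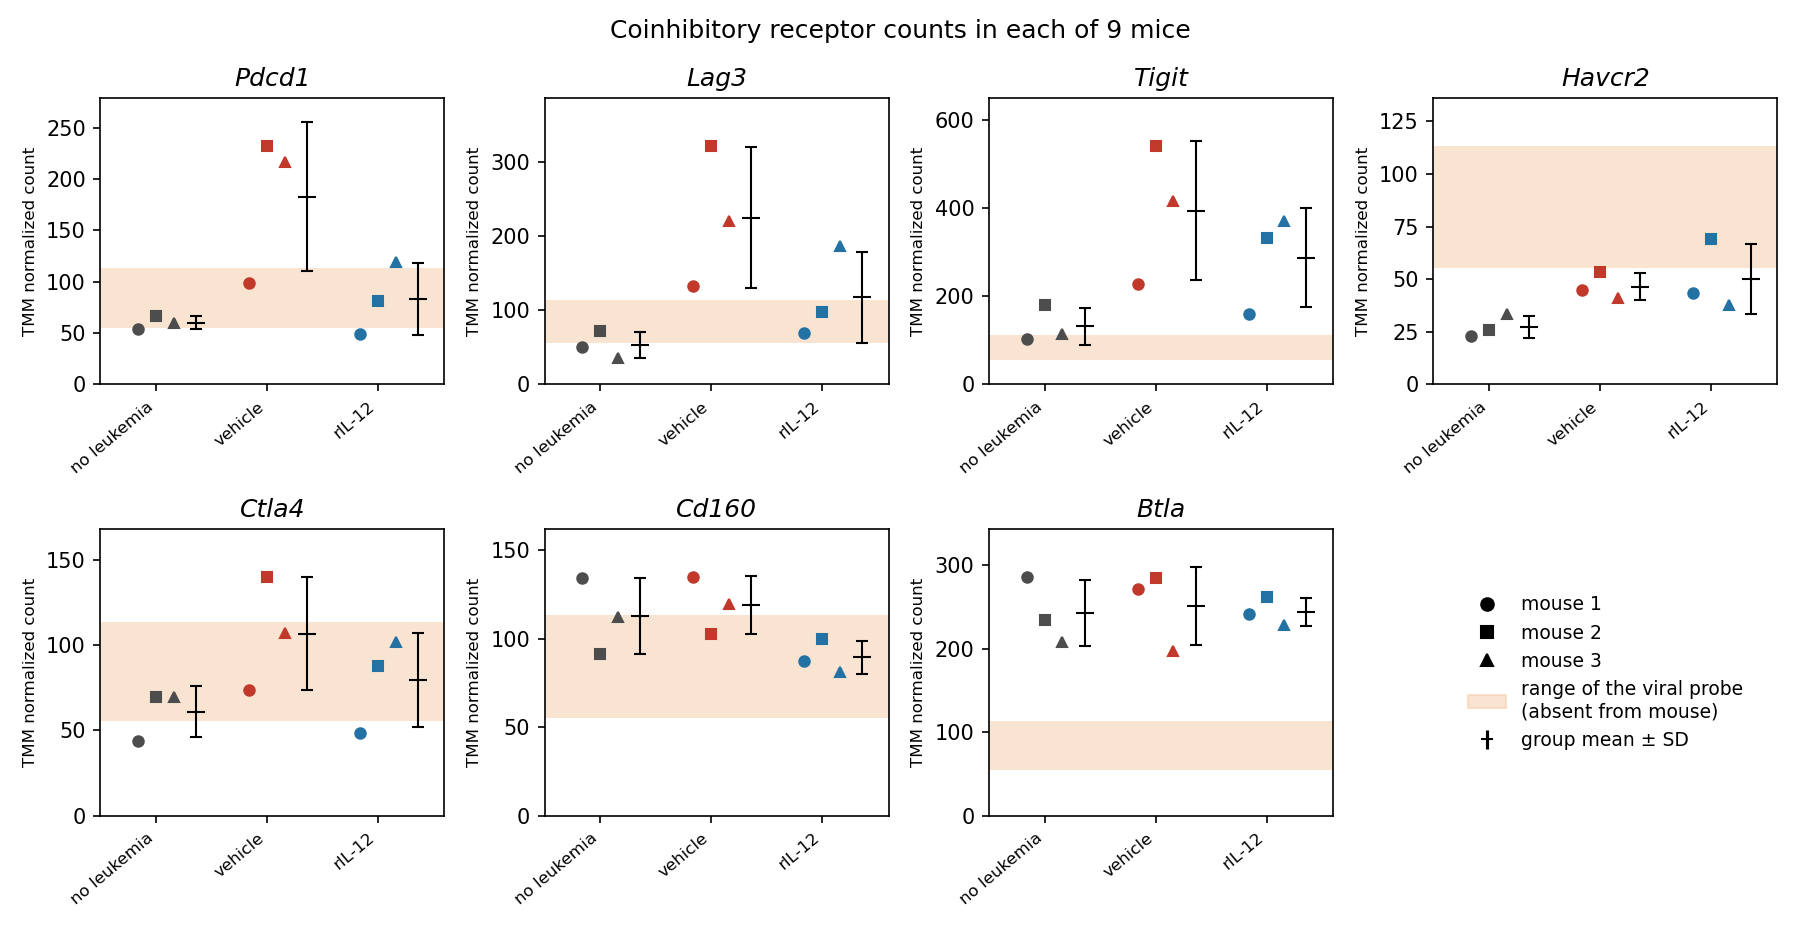
Normalized counts (TMM, vertical axis from 0) of the 7 receptors in each of the 9 mice by group, with the group mean ± SD (n = 3) and the range of the viral probe shaded. Vehicle treated mice lie above mice without leukemia for 5 receptors, while Havcr2 without leukemia lies far below the shaded range and Btla is alike in the 3 groups.

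In rIL-12 treated mice with leukemia, Tigit and Havcr2 rose compared with mice without leukemia, by 2.16-fold and 1.81-fold. Lag3 had a similar fold of 2.19 and did not pass with edgeR, while it did with DESeq2 (adjusted p = 0.0218). Tigit had 159, 333 and 371 normalized counts with rIL-12, of which mouse 1 lay below the highest mouse without leukemia. Havcr2 had 43.4, 68.9 and 37.6, each above the mice without leukemia and, as raw counts, each below the viral probe. The size of its change is therefore uncertain, as background subtraction moved its log2 fold change from 0.85 to 2.70. The log2 fold changes were 1.11 (standard error 0.36, adjusted p = 0.0456) for Tigit and 0.85 (0.27, adjusted p = 0.0413) for Havcr2 by edgeR, where the median of all probes was 0.024. The 2 of 7 receptors that passed upward compare with 8.92% of all probes.

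Lag3 had 69.0, 97.4 and 186 normalized counts with rIL-12, and its log2 fold change was 1.13 (standard error 0.40, adjusted p = 0.0657). Mouse 1 was below the highest mouse without leukemia. Pdcd1 had 49.4, 80.8 and 119 and Ctla4 48.5, 87.9 and 102, in both cases with mouse 1 inside or under the range without leukemia. Their log2 fold changes were 0.45 (95% interval −0.30 to 1.21) and 0.37 (−0.30 to 1.05). Cd160 had 87.7, 99.8 and 81.4, a log2 fold change of −0.32 (−0.75 to 0.10), and Btla 241, 261 and 229, a log2 fold change of 0.0064 (−0.40 to 0.41). Havcr2 was the 1 receptor of 7 with every rIL-12 treated mouse above every mouse without leukemia, compared with 18.9% of all probes. No receptor passed with total count or housekeeping scaling, in a model of the 2 groups alone or with the methods' t-test. When no-leukemia mouse 1 or 3 or rIL-12 mouse 2 was left out 0 receptors passed, with no-leukemia or vehicle mouse 2 left out Tigit alone did, with vehicle or rIL-12 mouse 3 left out Havcr2 alone did, and with vehicle or rIL-12 mouse 1 left out Lag3 passed too. The control mice are those of the vehicle comparison, so the fold changes of both comparisons are not independent.

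Set directly against vehicle treated mice with leukemia, rIL-12 treated mice had lower Pdcd1, by 2.19-fold, from 183 ± 72.8 to 83.1 ± 34.9 normalized counts (SD, n = 3 mice in each group). The log2 fold change was −1.13 (standard error 0.33, adjusted p = 0.0400 by edgeR), with a median of −0.084 over all probes. Mouse 3 of the rIL-12 treated group was above mouse 1 of the vehicle group, so the groups overlapped. Pdcd1 was the 1 of 7 receptors that fell, where 5.22% of all probes did. Lag3 had 224 ± 94.7 with vehicle and 118 ± 61.1 with rIL-12, or −0.94 on the log2 scale (standard error 0.37, adjusted p = 0.0954). Tigit had 395 ± 158 and 288 ± 113, or −0.46 (95% interval −1.21 to 0.29). The log2 fold changes of Ctla4 (−0.43), Cd160 (−0.40), Btla (−0.048) and Havcr2 (0.10) did not pass either. Cd160 was the 1 receptor with every rIL-12 treated mouse below every vehicle treated mouse, as were 15.3% of all probes. Pdcd1 no longer passed after background subtraction, in a model of the 2 groups alone or with the methods' t-test. With 1 mouse left out it passed when that was vehicle mouse 1 or rIL-12 mouse 3, together with Lag3, and for each of the other 7 mice 0 receptors passed (log2 fold changes of Pdcd1 from −1.47 to −0.87 over all 9). For Cd4, the coreceptor of helper T-cells, the log2 fold change in the same comparison was −0.85 (adjusted p = 0.0856).

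**Figure D2:**
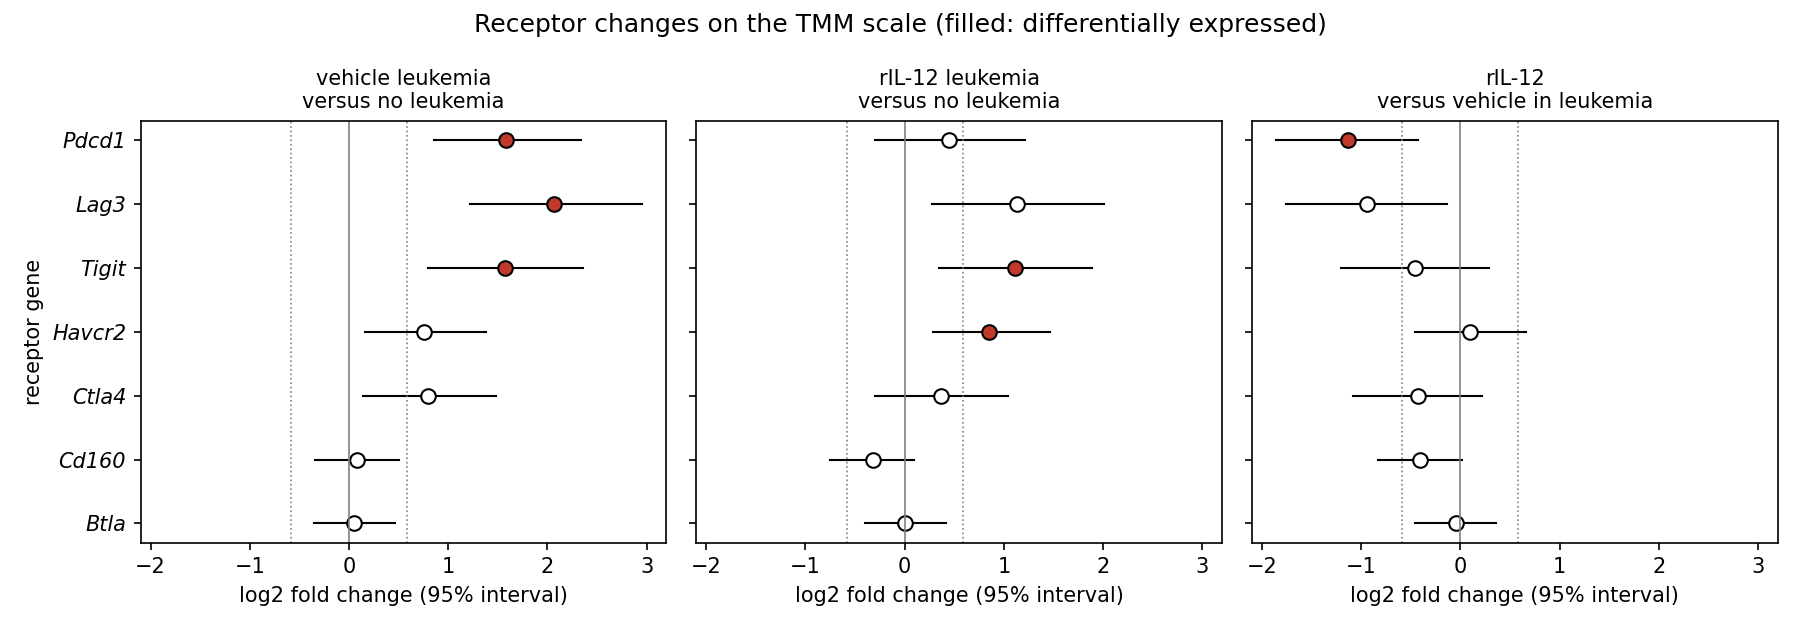
Log2 fold changes (horizontal axis, points) with 95% intervals (lines) of the 7 receptors in the 3 group comparisons on the TMM scale. Filled points passed the threshold, dotted lines mark a 1.5-fold change, and Pdcd1 is filled upward with vehicle and downward for rIL-12 against vehicle.

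The CD3 genes were lower, not higher, in mice with leukemia. The geometric mean of Cd3d, Cd3e and Cd3g was 1260, 697 and 1046 normalized counts without leukemia, 624, 553 and 453 with vehicle, and 239, 352 and 457 with rIL-12. Every mouse with leukemia was below every mouse without leukemia, and mouse 3 of the rIL-12 treated group was within the vehicle group. With rIL-12 all 3 CD3 genes fell compared with no leukemia (log2 fold changes −1.71, −1.56 and −1.28). With vehicle the values were −0.87, −0.95 and −0.79, and none passed. The coreceptor genes of cytotoxic T-cells fell further, Cd8a by 1.68 and Cd8b1 by 2.15 on the log2 scale with vehicle, and by 2.55 and 3.12 with rIL-12. Cd4 did not follow them, with log2 fold changes of 0.83 with vehicle (standard error 0.33, adjusted p = 0.223) and −0.015 with rIL-12.

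Per CD3 count, all 7 receptors were higher in every mouse with leukemia than in any mouse without it. Pdcd1 counts were 4.30, 9.56 and 5.72% of the CD3 mean without leukemia, 15.9, 42.1 and 47.8% with vehicle and 20.6, 22.9 and 26.0% with rIL-12. For Lag3 the shares were 4.06, 10.3 and 3.45%, then 21.1, 58.1 and 48.6%, and 28.8, 27.7 and 40.7%. For Tigit they were 8.11, 25.8 and 11.0%, then 36.4, 98.1 and 91.7%, and 66.5, 94.4 and 81.2%. The rIL-12 treated mice lay between the lowest and the highest vehicle treated mouse for these 3 receptors. However, 65.9% of all probes were likewise higher per CD3 count in every vehicle treated mouse and 90.7% in every rIL-12 treated mouse, and the exact two-sided permutation test gave p = 0.1 for each receptor, the smallest that 3 mice against 3 allow (0.15 after Benjamini-Hochberg adjustment over 21 comparisons). In rIL-12 against vehicle treated mice the groups overlapped for all 7 receptors, whereas 36.6% of all probes were higher and 0.637% lower per CD3 count in every rIL-12 treated mouse.

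With the CD3 genes as the library size in edgeR, 5 of the 7 receptors passed upward in vehicle treated mice, as did 19.6% of all probes. They were Lag3 (log2 fold change 2.84), Pdcd1 (2.41), Tigit (2.33), Ctla4 (1.58) and Havcr2 (1.54), whereas the median of all probes on this scale was 0.86. Cd160 (0.94) and Btla (0.86) lay near that median and did not pass. With a replicate block, 4 receptors passed and Havcr2 did not. Leaving out a mouse gave 3 receptors, Pdcd1, Lag3 and Tigit, for no-leukemia mouse 1 or 3 or vehicle mouse 2, and 7 for no-leukemia mouse 2 or rIL-12 mouse 1. Against no leukemia, all 7 receptors passed with rIL-12, with log2 fold changes of 1.25 (Cd160) to 2.45 (Lag3), and so did 89.8% of all probes, with a median of 1.53, so that the count for the receptors is close to the background. Between rIL-12 and vehicle treated mice 0 of 7 receptors passed with edgeR, and 0 had an unadjusted p under 0.05, while 23.7% of all probes passed upward. Pdcd1 had −0.59 (95% interval −1.45 to 0.26) and Lag3 −0.39 (−1.22 to 0.44) per CD3, where the median of all probes was 0.60.

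**Figure D3:**
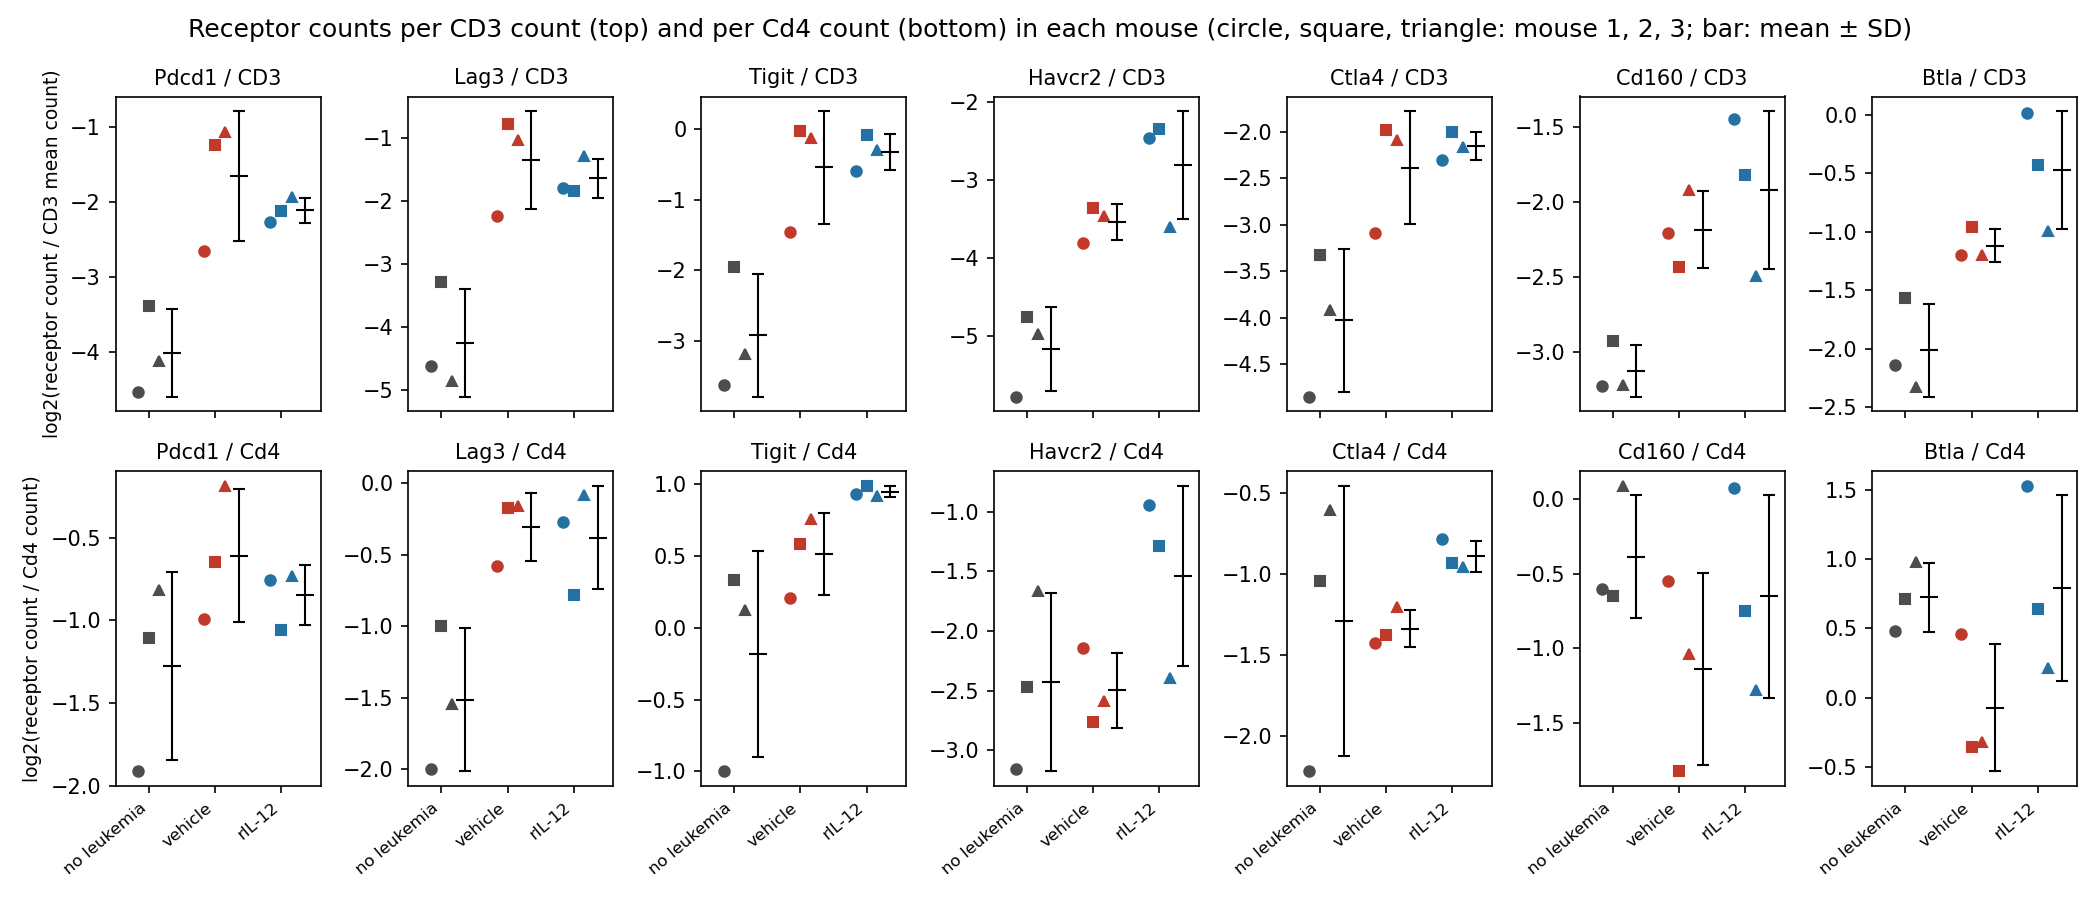
Log2 ratio of each receptor count to the geometric mean of the CD3 counts (top row) and to the Cd4 count (bottom row) in each mouse, with group mean ± SD (n = 3). Per CD3 both leukemia groups lie above mice without leukemia for all 7 receptors, and per Cd4 they do so for Lag3.

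Relative to Cd4, a reference chosen after seeing the data, the differences from mice without leukemia were smaller in size than relative to CD3 for all 7 receptors in both leukemia groups. Lag3 per Cd4 was higher in each mouse with leukemia than without it, with a mean log2 difference of 1.21 with vehicle and 1.13 with rIL-12. With vehicle it was the 1 receptor of 7 for which this held, as it did for 0.382% of all probes. With rIL-12 it held for Lag3 and Tigit (1.13), compared with 3.31% of all probes. The mean log2 differences with vehicle were 0.69 for Tigit and 0.67 for Pdcd1, with overlapping groups, and −0.048 for Ctla4 and −0.067 for Havcr2. Btla was lower per Cd4 in every vehicle treated mouse (−0.80), as were 31.2% of all probes. Between rIL-12 and vehicle treated mice, Tigit (0.43) and Ctla4 (0.45) were higher per Cd4 in every mouse, as were 33.4% of all probes. The exact two-sided permutation p was 0.1 where groups did not overlap, 0.35 after adjustment over 21 comparisons. With Cd4 alone as the library size in edgeR, no receptor passed in any of the 3 comparisons, where 23, 30 and 145 of all 785 probes did. At an unadjusted p under 0.05 there were 1, 2 and 0 receptors and 167, 77 and 286 probes.

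Within each leukemia group, Pdcd1, Lag3, Tigit and Ctla4 ranked the mice alike, whereas without leukemia the lowest mouse was mouse 3 for Lag3 and mouse 1 for the other three. In the vehicle group mouse 2 was highest and mouse 1 lowest for these 4 receptors and for Cd4, while Cd8a, Cd8b1 and the CD3 mean were highest in mouse 1 and lowest in mouse 3. In the rIL-12 treated group mouse 3 was highest and mouse 1 lowest for the same 4 receptors, for Cd4 and for the CD3 mean. The spread relative to a reference differed by group. With rIL-12 the SD of the log2 value was 0.66 for the normalized count of Tigit, 0.25 for Tigit per CD3 and 0.038 for Tigit per Cd4. For Ctla4 it was 0.57, 0.15 and 0.095, and for Pdcd1 0.64, 0.17 and 0.18. With vehicle the SD was larger per CD3 and smaller per Cd4, at 0.64, 0.80 and 0.28 for Tigit, 0.47, 0.61 and 0.12 for Ctla4, and 0.68, 0.87 and 0.41 for Pdcd1. Without leukemia it was larger per either reference, at 0.43, 0.87 and 0.72 for Tigit, 0.38, 0.77 and 0.84 for Ctla4, and 0.15, 0.58 and 0.57 for Pdcd1. For Cd160 and Btla the SD with rIL-12 was 0.15 and 0.097, and 0.68 and 0.67 per Cd4. These are descriptions of 3 mice in each group, and the receptor and its reference share a library.

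**Figure D4:**
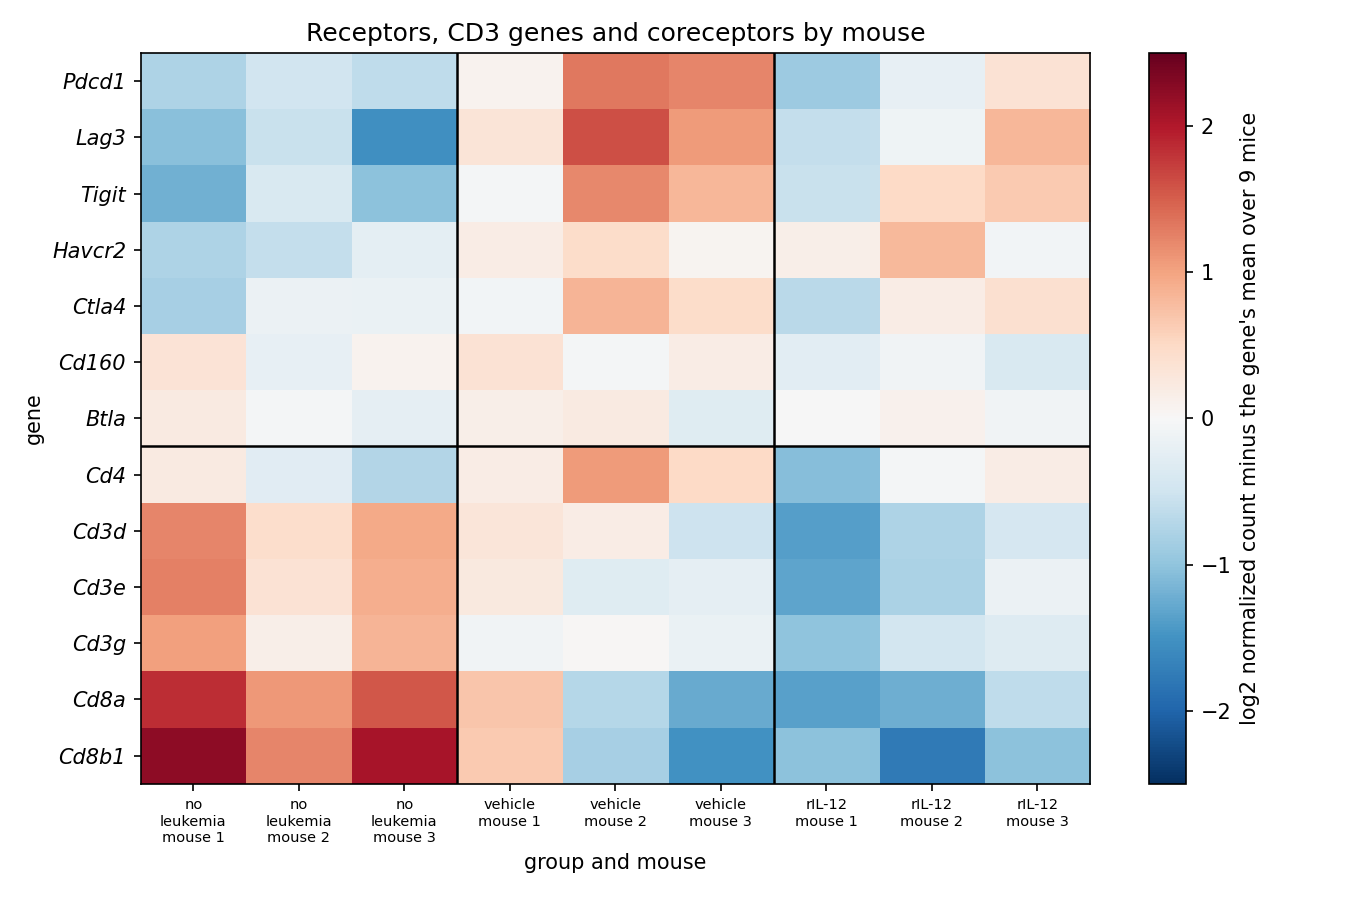
Log2 normalized count minus the mean over the 9 mice (color) for the 7 receptors and for Cd4, CD3 and Cd8 genes (rows) in each mouse (columns, groups divided by black lines). Mice 2 and 3 of the vehicle group have the darkest red for Pdcd1, Lag3 and Tigit, and the CD3 and Cd8 genes have it in mice without leukemia.

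Comparing the receptors with each other removes the scaling, because the ratio of 2 probes is taken within a mouse. Of the 21 receptor pairs, 12 had ratios that did not overlap between vehicle treated mice and mice without leukemia, 7 between rIL-12 treated mice and mice without leukemia, and 3 between the leukemia groups. Among all 307720 pairs of probes on the panel, ratios did not overlap for 24.4%, 37.6% and 29.3% in these comparisons. With vehicle, Lag3 was higher relative to Btla by 2.01 and to Cd160 by 1.96 on the log2 scale, and relative to Tigit by 0.52. Pdcd1 and Tigit did not part from each other with vehicle (mean log2 difference −0.022, groups overlapping). With rIL-12 against vehicle, Pdcd1 was lower relative to Tigit (−0.67) and to Ctla4 (−0.69), and Lag3 relative to Tigit (−0.51), in every mouse. Pdcd1 relative to Tigit was also lower with rIL-12 than without leukemia (−0.69). The exact two-sided permutation p was 0.1 for each of these pairs, 0.286 after adjustment over 63 comparisons, so no pair passed.

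The probes most like each receptor were found by the root mean square difference of log2 values, centered on the gene's mean, over the 9 mice. For Pdcd1 they were Tnfrsf9, the costimulatory receptor 4-1BB (0.32), Tigit (0.37) and Ctla4 (0.39), where the median probe was at 0.80. For Lag3 they were Tigit (0.35), Pdcd1 (0.39) and the cytokine gene Il10 (0.44). For Tigit they were Il10 (0.31), Lag3 (0.35) and Il12rb1, a chain of the IL-12 receptor (0.36). For Ctla4 the nearest was Icos, a costimulatory receptor of activated helper T-cells (0.29), and for Havcr2 it was Mapk13 (0.25), then Cd80 and Gzmk. Cd160 was nearest to Hey2 (0.13) and Btla to Gsk3b (0.096). All of these share the same 9 libraries, and a small distance describes these mice alone.

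The counts of related gene lists stand beside 1.27% of all probes that rose and 1.4% that fell with vehicle, 8.92% and 8.66% with rIL-12 compared with no leukemia, and 8.54% and 5.22% with rIL-12 compared with vehicle. Among 11 measured genes for ligands of the receptors, 0 passed with vehicle, and with rIL-12 5 rose compared with no leukemia. They were H2-Aa (log2 fold change 2.68), H2-Ab1 (2.67) and H2-Eb1 (2.08), which encode MHC class II chains that LAG-3 binds, Lgals9 (1.32), which encodes galectin-9, and Cd80 (0.78), a ligand of CTLA-4 and CD28. The 3 class II genes were also higher with rIL-12 than with vehicle (2.03, 1.97 and 1.18). Class II is carried by B-cells, dendritic cells and macrophages. Of 7 myeloid markers 2 rose with rIL-12 compared with no leukemia, and of 6 markers of B-cells or B-ALL none did. Of 2 dendritic cell markers 1 fell and none rose. Which cells held the class II RNA was not tested.

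Of 8 measured costimulatory receptors, Tnfrsf9 rose (1.15) and Cd226, the activating counterpart of TIGIT, fell (by 1.06) with vehicle. With rIL-12 compared with no leukemia Cd226 fell by 1.04 and Cd28 by 0.90, and compared with vehicle Tnfrsf9 fell by 1.04. Of 12 other inhibitory receptors and enzymes, 0 passed with vehicle. With rIL-12 Cd96, a further receptor for CD155, fell by 1.88, Nt5e (CD73) by 1.41 and Cd5 by 0.79, and Entpd1 (CD39) rose by 0.67. Cd96 and Nt5e were also lower than with vehicle (−1.07 and −0.88).

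Of 10 measured transcription factors linked to receptor expression, 0 passed with vehicle. With rIL-12 Eomes fell by 1.12, Nfatc2 by 0.79 and Nr4a1 by 0.78 compared with no leukemia, and Nr4a1, an early response gene of T-cell receptor signaling, fell by 1.11 compared with vehicle. Of 6 regulatory T-cell markers, Il10 was the 1 that rose with vehicle (1.91), while 4 of the 6 had log2 fold changes below 0. With rIL-12 compared with no leukemia Il10 also rose (1.73), 4 of the 6 were again below 0, and 2 fell. Foxp3, the lineage factor, fell by 1.45 in that comparison. The summed count of these 6 markers was 762 to 886 without leukemia, 639 to 982 with vehicle and 381 to 711 with rIL-12. Among NK cell markers, a group that includes cells with Cd160 and Tigit, the sum of 7 genes was 1213 to 1534, 851 to 1154 and 999 to 1619. This sum joins opposite changes, as 1 of the 7 genes rose and 3 fell with rIL-12 compared with no leukemia. With vehicle 0 of them passed.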

How the data were processed

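T-cell RNA of 9 mice was measured on an nCounter panel of 785 probes. The values deposited by the authors are whole-number barcode counts. The nSolver normalization of the methods is not in these values, and positive and negative control probes were not used here. Probes were matched to symbols with RefSeq (GRCm38.p6) for 751 probes, not for 34. Depth per mouse is given above. Replicates were separate mice, and deposited counts of mice of 1 group differed by more than counting error (chi-square per degree of freedom 5.54 to 60.0).

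TMM scaling and edgeR 4.0.16 (R 4.3.3) were used, with all 9 mice in 1 quasi-likelihood model, a prior count of 1 and Benjamini-Hochberg adjustment over all probes. A second fit took the geometric mean of Cd3d, Cd3e and Cd3g as the library size. Ratios within a mouse were compared with exact two-sided permutation tests. The rule for named genes was all 7 receptors, CD3 genes and coreceptors, at most 4 differentially expressed genes of each related list and comparison by size of change, and the 3 probes most alike. Members, lists and tests were chosen with earlier results of these data known. The fit with TMM scaling was tested on simulated data, and the fit with CD3 genes as the library size was not. Replicate numbers did not pair the samples in the series as a whole, since same-numbered mice had correlations of deviations from −0.18 to 0.33, over 0.1 in 5 of 9 pairs, although in all 3 pairs of vehicle treated mice and mice without leukemia. Alternatives were other scalings, DESeq2 1.42.0, filters on a mean count of 20 or the viral probe, background subtraction of the 5th percentile of each mouse, fold thresholds, a replicate block, a 2-group model, the methods' t-test and leaving out each mouse.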

Additional observations from a re-analysis of the deposited data

How the results depend on the processing

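On the TMM scale, 0 receptors passed in vehicle treated mice against no leukemia with housekeeping scaling, background subtraction and the methods' t-test (edgeR called 3, and 5 had an unadjusted p under 0.05), and leaving out 1 mouse gave 0 to 3. With rIL-12 against no leukemia, in place of 2, the count was 1 with a 2-fold threshold, with the viral probe filter and after background subtraction, and 0 with total count or housekeeping scaling, the 2-group model and the t-test. It was 3 with DESeq2, which added Lag3, and 0 to 3 without 1 mouse. For rIL-12 against vehicle the count was 2 with housekeeping scaling (Pdcd1 and Cd160), 0 after background subtraction, with the 2-group model and with the t-test, and 0 to 2 without 1 mouse. Relative to CD3, 3 receptors passed with the viral probe filter in vehicle treated mice and 3 to 7 without 1 mouse, and 0 in each leukemia group with Cd4 alone, and for rIL-12 against vehicle 0 to 1 passed without 1 mouse. With the replicate block the counts were 3, 2 and 1 on the TMM scale and 4, 7 and 0 relative to CD3, so that Havcr2 relative to CD3 with vehicle was the 1 call it changed, and each mouse was closest to its own number in 9 of 18 matches. Signs changed as follows. The log2 fold change of Btla with rIL-12 against no leukemia was −0.0073 with DESeq2 size factors, −0.17 with total count scaling, −0.27 with housekeeping scaling, −0.022 after background subtraction, −0.0069 with DESeq2, and −0.047 to 0.16 without 1 mouse. For rIL-12 against vehicle, that of Btla was 0.029 in the 2-group model and −0.19 to 0.028 without 1 mouse, and that of Havcr2 was −0.088 with total count and −0.26 with housekeeping scaling and −0.20 to 0.26 without 1 mouse. In vehicle treated mice Cd160 had −0.050 to 0.20 and Btla −0.075 to 0.19 without 1 mouse. With Cd4 alone in place of CD3, the values of Havcr2, Ctla4, Cd160 and Btla with vehicle went from 1.54, 1.58, 0.94 and 0.86 to −0.15, −0.18, −0.70 and −0.76, and Cd160 with rIL-12 from 1.25 to −0.20. The median of all probes likewise went from 0.86 to −0.79 with vehicle and from 1.53 to 0.13 with rIL-12. For rIL-12 against vehicle relative to CD3, Tigit had −0.23 to 0.34 and Ctla4 −0.12 to 0.37 without 1 mouse. The median of all probes moved with housekeeping scaling to 0.14, −0.24 and −0.44 in the 3 comparisons, from 0.049, 0.024 and −0.084. A CD3 reference with Cd247 was not run, as no probe was matched to it. The causes were not tested. Counts at the level of the viral probe limit Havcr2 in all groups and Pdcd1, Lag3 and Ctla4 without leukemia.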
